A study of Mus musculus with 8 samples.

Results

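The genes described here are 10 markers of macrophages, Lyz2, Csf1r, Cd14, Cd68, C1qa, C1qb, C1qc, Tyrobp, Aif1 and Adgre1, measured in RNA of a mouse colon epithelial preparation. They were chosen by gene symbol, and each of the 10 symbols matched 1 of the 53379 genes in the tables. All 10 were among the 14991 genes that passed the filter on low counts and were tested. They did not pass it equally. Lyz2, Csf1r, Cd14 and Cd68 were above the filter's level of 0.591 counts-per-million (CPM) in both libraries of all 4 groups. C1qa, C1qb, C1qc, Tyrobp and Adgre1 were above it only in the DSS groups, and Aif1 only in DSS-treated KO.

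Macrophages are phagocytes of the innate immune system, and in the colon they sit beneath the epithelium, where blood monocytes continually replace many of them. They depend on signals through the receptor Csf1r, take up microbes and dying cells, digest them in lysosomes, and release complement component C1q. When the colon lining is injured, monocytes enter the tissue and can pass through inflammatory stages before they mature.

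The libraries came from epithelial cells (IEC) of the distal colon of C57BL/6 mice, freed from the opened and washed tissue by shaking. The groups were KO (RORaΔIEC, Rora deleted in the intestine) with DSS, WT (RORaf/f) with DSS, untreated KO and untreated WT, with 2 libraries each. DSS, dextran sulfate sodium, injures the colon lining and was drunk at 2% (w/v) for 5 days, with 3 days of recovery on water after it. The promoter that drives the deletion, the age and the sex of the mice, and whether a library held 1 mouse or several, are not given in the sources used here. Nothing in the labels says that the 2 libraries of a group came from separate animals, so p-values measure the spread between these libraries, which may be technical.

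Library totals were 15971642 to 20418466 expected counts. Rora, the deleted gene, had 8 and 5 counts in DSS-treated KO, 16 and 14 in DSS-treated WT, with 4 and 3 in untreated KO and 12 and 6 in untreated WT. Its log2 fold change of KO over WT was -1.24 ± 0.45 (SE, edgeR adjusted p = 0.0425) with DSS and -1.10 ± 0.58 (adjusted p = 0.238) without, and loss of an exon cannot be read from a count over the whole gene. The epithelial label was met: 10 epithelial genes, among them Epcam and Krt8, summed to 20303 to 21384 CPM in DSS-treated KO, 19473 to 19581 in DSS-treated WT, 22648 to 22833 in untreated KO and 20695 to 20718 in untreated WT. The 10 macrophage markers together summed to 154 to 163 CPM in DSS-treated KO, 70.5 to 71.1 in DSS-treated WT, 45.9 to 47.2 in untreated KO and 46.6 to 48.5 in untreated WT. In RNA of a mixed preparation, fewer cells of a type and less RNA per cell cannot be told apart.

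All 10 markers had their highest mean in DSS-treated KO colon epithelium. Against DSS-treated WT, 6 of the 10 were higher and 0 were lower. The 6 were Tyrobp, Cd68, Cd14, Csf1r, Lyz2 and C1qb, at 1.05 to 1.69 on the log2 scale. The other markers, C1qa, Adgre1, Aif1 and C1qc, were at 0.28 to 0.81 and did not pass the test. For comparison, 21.3% of all genes tested were higher and 17.7% lower in this comparison. The median log2 fold change was 1.05 over the 10 markers and -0.01 over all genes tested. In 9 of the 10, both KO libraries lay above both WT libraries, which was so for 34.4% of all genes tested. The libraries overlapped for C1qc. Aif1, among the 9 and in the median, passed the low count filter only through DSS-treated KO, so its direction here was set by it. Tests were edgeR quasi-likelihood tests on one fit of all libraries, with p-values adjusted over all genes tested and a threshold of 0.05.

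Without DSS the genotypes were not told apart by these genes. No marker passed the test between untreated KO and untreated WT (0 of 10 by edgeR and 0 by DESeq2), where 15.4% of all genes did. At an unadjusted p under 0.05 there was 1, Lyz2, and it was also the marker whose untreated libraries did not overlap, both KO ones being lower, as for 28% of all genes. The median log2 fold change of the 10 was -0.43, against 0.01 over all genes tested. C1qa, C1qb, C1qc, Tyrobp, Aif1 and Adgre1 held 3 to 17 counts per untreated group, and their SEs there were 0.54 to 0.91 on the log2 scale, so only large differences could have been detected at this depth.

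DSS itself raised most of the markers in both genotypes. In KO, 10 of 10 were higher with DSS than without, where 21.7% of all genes were. In WT, 8 of 10 were higher, where 18.9% of all genes were, and Cd68 and Aif1 did not pass. The median log2 fold change over the 10 was 3.21 in KO and 1.82 in WT, against 0.00 and -0.01 over all genes tested. The 6 markers that passed the filter only through DSS libraries had to be higher with DSS, so these counts and medians describe the markers and carry no support of their own. The DSS change in KO minus that in WT, the interaction, was tested directly and was called for 5 of 10, Tyrobp, Lyz2, Csf1r, Cd68 and Cd14, all positive, where 10.8% of all genes had a positive call. The DSS-treated libraries enter both this test and the comparison of genotypes under DSS, so the 2 sets of calls are not independent of each other.

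**Figure D1:**
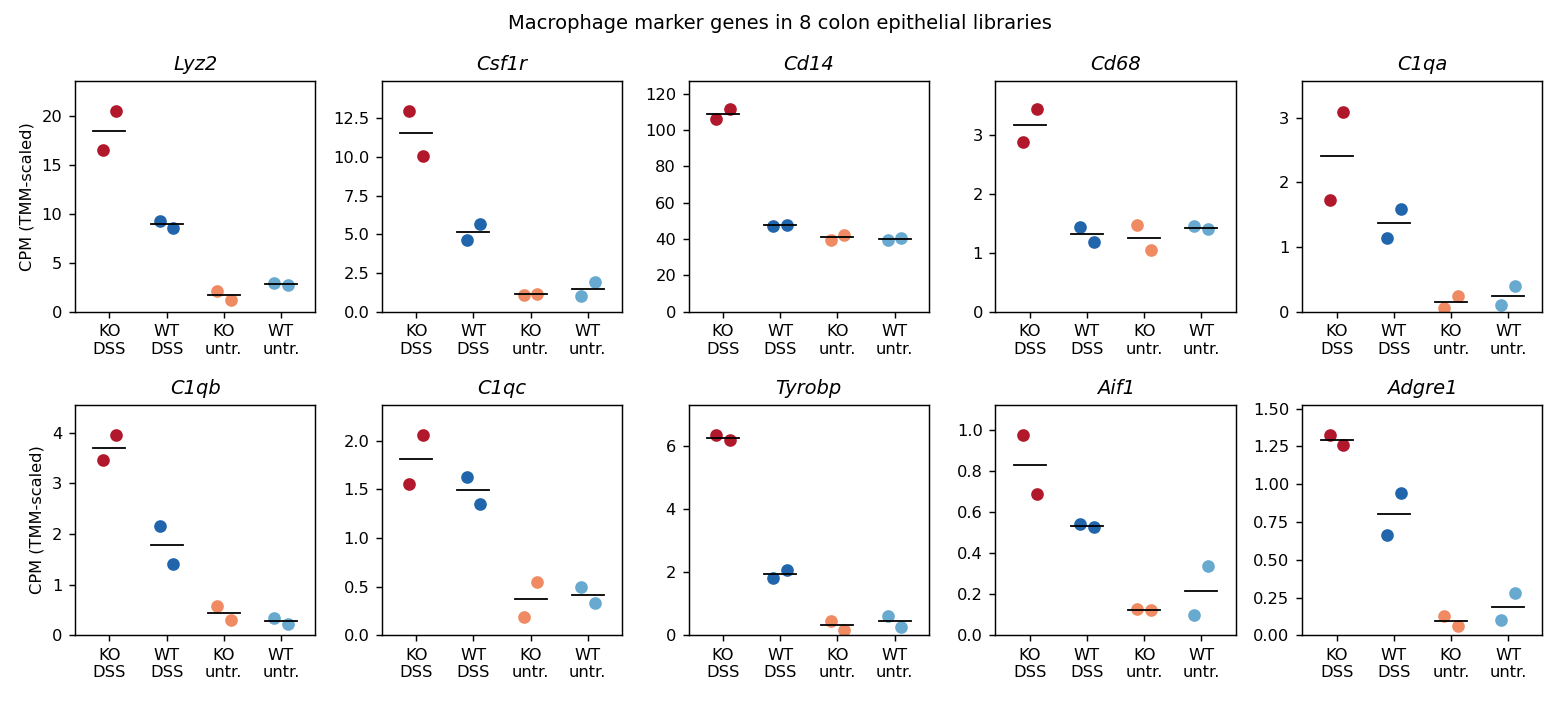
CPM (y axis, linear, from 0, a scale per gene) of each macrophage marker in the 2 libraries of DSS-treated KO, DSS-treated WT, untreated KO and untreated WT; points are libraries and bars are group means. DSS-treated KO has the highest points in all 10 panels, its lower C1qc library lies within the range of DSS-treated WT, and the Cd68 points of the other 3 groups share one level.

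Among the receptors, Csf1r binds the growth factors CSF1 and IL-34 and is needed for the survival of most macrophages. Csf1r stood at 12.9 and 10.1 CPM in DSS-treated KO, 4.63 and 5.65 in DSS-treated WT, with 1.08 and 1.16 in untreated KO and 1.00 and 1.91 in untreated WT. Both DSS groups lay apart from each other and from the untreated libraries, which overlapped. The log2 fold change was 1.16 ± 0.18 (SE, adjusted p = 0.000169) for DSS-treated KO over DSS-treated WT. It was 3.35 ± 0.25 for DSS over untreated in KO and 1.84 ± 0.26 in WT, with an interaction of 1.51 ± 0.40 (adjusted p = 0.0159). That interaction was lost without DSS-treated WT replicate 1 (adjusted p = 0.0549), untreated KO replicate 1 (0.0707), untreated KO replicate 2 (0.0588) or untreated WT replicate 2 (value 1.00, 0.158). Of the gene's 5774 exon bases, 873 (15.1%) overlap the antisense gene Hmgxb3, its expected counts were not whole in any library, and no strand setting is given in the sources used here, so part of this signal is uncertain.

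The genes around Csf1r were taken from a list of 10 ligands, related receptors and signalling partners, of which 8 were tested. In DSS-treated KO against DSS-treated WT, 3 were higher and 2 lower, where 21.3% of all genes tested were higher and 17.7% lower. Csf1, one of the ligands, was at 2.65 and 3.95 CPM in DSS-treated KO and 1.26 and 1.30 in DSS-treated WT (log2 fold change 1.36 ± 0.28, adjusted p = 0.00143), while Il34, the other ligand, was at 14.2 ± 0.23 CPM in DSS-treated KO and 12.5 ± 1.25 in DSS-treated WT (SD, n = 2, log2 fold change 0.19 ± 0.10, adjusted p = 0.144). The other rises were in receptors shared with other myeloid cells, Csf2rb (2.09 ± 0.16), the common chain of the GM-CSF, IL-3 and IL-5 receptors, and Csf3r (1.95 ± 0.17), the G-CSF receptor of neutrophils. Pik3r1 and Cbl, which act downstream of many receptors, were lower.

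Cd14, a coreceptor that hands bacterial lipopolysaccharide to TLR4, was the most abundant marker and the one with the smallest errors. It had 105.9 and 111.8 CPM in DSS-treated KO, 47.2 and 47.8 in DSS-treated WT, with 39.7 and 42.3 in untreated KO and 39.4 and 40.7 in untreated WT. The DSS-treated KO libraries were above 100 CPM while the other 6 libraries lay between 39.4 and 47.8, so the untreated preparations already held much of this transcript. The log2 fold change was 1.20 ± 0.05 (adjusted p = 7.18e-10) for DSS-treated KO over DSS-treated WT and 0.03 ± 0.06 (adjusted p = 0.754) for untreated KO over untreated WT. DSS raised Cd14 by 1.41 ± 0.05 in KO and by 0.25 ± 0.06 in WT (adjusted p = 0.00423), and the interaction was 1.16 ± 0.08 (adjusted p = 2.39e-07).

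The other genes of lipopolysaccharide sensing were a list of 14, of which 13 were tested. In DSS-treated KO against DSS-treated WT 3 were higher and 1 lower, with 2 higher and 0 lower by DESeq2. Over all genes tested by edgeR, 21.3% were higher and 17.7% lower, so the count of higher genes was near that share. Ly86, which was not called, passed the low count filter only through DSS-treated KO. Lbp, the plasma protein that delivers lipopolysaccharide to CD14, was at 7.59 and 9.96 CPM in DSS-treated KO and 5.05 and 4.77 in DSS-treated WT (0.84 ± 0.16, adjusted p = 0.000814), and its change with DSS was 2.61 ± 0.20 in KO and 0.94 ± 0.19 in WT. Myd88, the adaptor of most Toll-like receptors, changed by 0.40 ± 0.06, and the receptor Tlr4 by 0.25 ± 0.07 (adjusted p = 0.0137). Irak2, a kinase below MyD88, was lower (-0.17 ± 0.06, adjusted p = 0.0341), a call that was lost with DESeq2 and in some of the fits with 1 library left out. The median over the 13 genes was 0.10, with -0.01 over all genes tested.

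Adgre1 encodes F4/80, the surface receptor used in mice to define mature macrophages. It was the least abundant of the 10 per gene length. Counts were 23 and 22 in DSS-treated KO, 11 and 16 in DSS-treated WT, with 2 and 1 in untreated KO and 2 and 5 in untreated WT. The DSS libraries of both genotypes lay above all untreated libraries, and the KO ones above the WT ones. Between DSS-treated KO and DSS-treated WT the log2 fold change was 0.68 ± 0.37 and did not pass (adjusted p = 0.159). The ratio of DSS-treated to untreated KO was 13.8, with a 95% counting interval from 4.43 to 69.4 because only 3 counts stand below it, and the change was called (adjusted p = 0.000139). In WT the change was 2.07 ± 0.53 (adjusted p = 0.00725). It lost its call without DSS-treated WT replicate 2 (adjusted p = 0.0745) or untreated WT replicate 1 (0.0991).

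Tyrobp encodes DAP12, the adaptor that carries the signal of receptors such as TREM1, TREM2 and CLEC5A through the kinase Syk. It had the largest fold changes of the 10 between genotypes with DSS and between treatments in KO. In DSS-treated KO it was at 6.33 and 6.18 CPM, in DSS-treated WT at 1.80 and 2.06, in untreated KO at 0.445 and 0.184, and in untreated WT at 0.601 and 0.280. The groups were separate except for the untreated ones, which overlapped at or under 12 counts a library. The fold changes were 1.69 ± 0.23 (adjusted p = 3.93e-05) for DSS-treated KO over DSS-treated WT, 4.29 ± 0.33 for DSS over untreated in KO and 2.09 ± 0.36 in WT. The interaction was 2.21 ± 0.59 (adjusted p = 0.0164). It did not pass without untreated KO replicate 2 (1.70, adjusted p = 0.0902) or untreated WT replicate 1 (1.54, adjusted p = 0.239).

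Of 14 receptors and signalling partners of DAP12, 10 were tested. In DSS-treated KO against DSS-treated WT 6 were higher and 0 were lower, where 21.3% of all genes were higher. The median over the 10 was 0.36, and by DESeq2 4 were higher and 0 lower. Trem1, a receptor of monocytes and neutrophils, averaged 11.0 CPM in DSS-treated KO against 1.01 in DSS-treated WT (3.43 ± 0.22, adjusted p = 2.26e-08). Clec5a, a lectin receptor of myeloid cells, averaged 1.72 CPM in DSS-treated KO against 0.148 in DSS-treated WT (3.47 ± 0.47), and Fcer1g, the adaptor most closely related in function to DAP12, 5.39 CPM in DSS-treated KO against 1.13 in DSS-treated WT (2.25 ± 0.28). Syk, which epithelial libraries held at 84.9 to 115 CPM on average, changed by 0.28 ± 0.05. Lcp2 and Vav1 were the other higher genes. Clec5a passed the low count filter only through DSS-treated KO, so it could be tested only as a higher gene there.

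Lyz2 encodes lysozyme M, the bacteriolytic enzyme of macrophages and neutrophils. Its levels were 16.6 and 20.5 CPM in DSS-treated KO, 9.31 and 8.54 in DSS-treated WT, with 2.16 and 1.22 in untreated KO and 2.95 and 2.69 in untreated WT. No groups overlapped. The log2 fold change was 1.05 ± 0.14 (adjusted p = 2.88e-05) for DSS-treated KO over DSS-treated WT, and -0.74 ± 0.26 (adjusted p = 0.0756) for untreated KO over untreated WT. DSS raised Lyz2 by 3.45 ± 0.19 in KO and by 1.66 ± 0.18 in WT, with an interaction of 1.80 ± 0.30 (adjusted p = 0.000736). The lower untreated value passed the test when DSS-treated KO replicate 1 or 2 was left out (adjusted p = 0.0323 and 0.0327), without untreated KO replicate 1 (-1.20, adjusted p = 0.0459), without the filter on low counts (adjusted p = 0.0153), and with the untreated groups fitted alone (adjusted p = 0.0427).

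Lyz2 lies beside its paralog Lyz1, the lysozyme of Paneth cells, on chromosome 10 of mm10 (Lyz2 at chr10:117277331-117282321 and Lyz1 at chr10:117287797-117292868, both on the minus strand, GENCODE M21). Their transcripts share 195 stretches of 50 bases, 15.4% of those in Lyz2 and 16.1% of those in Lyz1, so some reads could be assigned to either, although the expected counts of both genes were whole in every library within 0.001. The stretches before their starts are shown because the paralogs had different values with DSS in WT, with the bases that did not match in a gapped alignment in capitals (RefSeq, GRCm38.p6, minus strand, chr10:117282322-117282522 for Lyz2 and chr10:117292918-117293118 for Lyz1).
Lyz2: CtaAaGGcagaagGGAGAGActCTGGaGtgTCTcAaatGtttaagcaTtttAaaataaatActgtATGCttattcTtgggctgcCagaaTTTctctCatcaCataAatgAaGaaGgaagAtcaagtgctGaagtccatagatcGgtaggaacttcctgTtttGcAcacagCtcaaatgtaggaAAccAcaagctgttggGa
Lyz1: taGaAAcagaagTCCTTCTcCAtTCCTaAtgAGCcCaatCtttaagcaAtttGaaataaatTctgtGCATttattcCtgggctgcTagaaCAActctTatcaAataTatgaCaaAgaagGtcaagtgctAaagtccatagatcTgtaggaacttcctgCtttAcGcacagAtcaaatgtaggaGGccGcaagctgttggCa
The pair matched at 74.4% of aligned positions, and 50 bases of each of the 201 did not match. Lyz1 was at 3.11 and 2.52 CPM in DSS-treated KO, 1.44 and 1.00 in DSS-treated WT, with 1.27 and 1.16 in untreated KO and 1.00 and 1.29 in untreated WT. Its DSS-treated KO libraries stood above the other 6, which overlapped. Lyz1 was higher in DSS-treated KO than in DSS-treated WT by 1.20 ± 0.27 (adjusted p = 0.00256), and its change with DSS in WT was 0.10 ± 0.31 (adjusted p = 0.836), against 1.66 ± 0.18 for Lyz2. The difference between the 2 genes was not tested.

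Cd68, a glycoprotein of lysosome membranes, departed from the other markers in WT. It was at 2.88 and 3.43 CPM in DSS-treated KO, 1.44 and 1.18 in DSS-treated WT, with 1.46 and 1.04 in untreated KO and 1.45 and 1.40 in untreated WT. The DSS-treated KO libraries were the high ones, and the other 3 groups overlapped. The log2 fold change with DSS was 1.33 ± 0.25 (adjusted p = 0.000676) in KO and -0.12 ± 0.28 (adjusted p = 0.769) in WT. It was 1.27 ± 0.25 (adjusted p = 0.00103) between DSS-treated KO and DSS-treated WT. The interaction of 1.46 ± 0.38 (adjusted p = 0.0147) was lost with DESeq2 (adjusted p = 0.116), and without DSS-treated WT replicate 2 (0.0572), untreated KO replicate 2 (0.0719) or untreated WT replicate 1 (0.0600).

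Of 14 other lysosomal genes, all tested, 5 were higher and 1 was lower in DSS-treated KO than in DSS-treated WT, with a median log2 fold change of 0.06. Over all genes tested, 21.3% were higher and 17.7% lower. Lgmn, the protease legumain, averaged 37.8 CPM in DSS-treated KO against 25.3 in DSS-treated WT (0.58 ± 0.07), and Ctsb, cathepsin B, 501 CPM in DSS-treated KO against 440 in DSS-treated WT (0.19 ± 0.04). The higher genes numbered 2 without DSS-treated WT replicate 2 and 3 by DESeq2. Epithelial cells use these genes as well.

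C1qa, C1qb and C1qc encode the 3 chains of complement C1q, the molecule that starts the classical complement pathway and that in the gut is made mainly by macrophages. They lie together within 18675 bases of chromosome 4, on the minus strand, C1qa at chr4:136895917-136898803, C1qb at chr4:136880129-136886187 and C1qc at chr4:136889804-136893065 (mm10, GENCODE M21). C1qa was at 1.73 and 3.09 CPM in DSS-treated KO, 1.14 and 1.59 in DSS-treated WT, with 0.0635 and 0.245 in untreated KO and 0.100 and 0.392 in untreated WT. C1qb was at 3.45 and 3.95 CPM in DSS-treated KO, 2.16 and 1.41 in DSS-treated WT, with 0.572 and 0.306 in untreated KO and 0.350 and 0.224 in untreated WT. C1qc was at 1.55 and 2.06 CPM in DSS-treated KO, 1.62 and 1.35 in DSS-treated WT, with 0.191 and 0.551 in untreated KO and 0.501 and 0.336 in untreated WT. All 3 chains were separate between DSS-treated and untreated libraries, while the genotypes with DSS were separate for C1qa and C1qb and overlapped for C1qc.

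With DSS, the chains rose in both genotypes. The log2 fold change was 3.89 ± 0.58 in KO and 2.48 ± 0.56 in WT for C1qa, 3.06 ± 0.34 in KO and 2.59 ± 0.41 in WT for C1qb, and 2.25 ± 0.42 in KO and 1.80 ± 0.41 in WT for C1qc, all called. The WT change of C1qa was lost without untreated WT replicate 1 (1.78, adjusted p = 0.0555). Between DSS-treated KO and DSS-treated WT the picture was less even: C1qb was higher by 1.05 ± 0.26 (adjusted p = 0.00489), C1qa was at 0.81 ± 0.37 (adjusted p = 0.0954) and C1qc at 0.28 ± 0.32 (adjusted p = 0.516). The ratio for C1qc was 1.22, with a 95% counting interval of 0.825 to 1.80, while that of C1qb was 2.07 with an interval of 1.52 to 2.87. The call for C1qb was lost with DESeq2 (adjusted p = 0.0761) and without DSS-treated WT replicate 2 (0.77, adjusted p = 0.0688), and C1qa was called without DSS-treated KO replicate 1 (adjusted p = 0.0236). No chain had an interaction past the threshold (0.45 to 1.41 on the log2 scale, adjusted p = 0.344 to 0.668).

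Promoter sequence is shown for 2 of the C1q genes and for Cd68, because the C1q genes rose with DSS in both genotypes and the rise of Cd68 passed the test in KO alone. The RefSeq table (GRCm38.p6) holds a promoter for 5 of the 10 markers. In the stretches below, all upstream of the annotated starts on the minus strand, capitals mark the core GAGGAA, or its reverse complement, of the sites bound by PU.1, a transcription factor of myeloid cells (chr4:136886201-136886450 for C1qb, chr4:136893066-136893164 for C1qc and chr11:69666171-69666420 for Cd68).
C1qb: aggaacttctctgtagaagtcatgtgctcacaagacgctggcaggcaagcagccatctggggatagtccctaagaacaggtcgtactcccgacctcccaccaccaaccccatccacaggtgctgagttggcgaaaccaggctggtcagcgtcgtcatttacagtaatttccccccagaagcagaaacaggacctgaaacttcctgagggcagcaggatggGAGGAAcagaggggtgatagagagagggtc
C1qc: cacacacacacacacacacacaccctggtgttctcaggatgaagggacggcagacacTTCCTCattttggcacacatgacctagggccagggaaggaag
Cd68: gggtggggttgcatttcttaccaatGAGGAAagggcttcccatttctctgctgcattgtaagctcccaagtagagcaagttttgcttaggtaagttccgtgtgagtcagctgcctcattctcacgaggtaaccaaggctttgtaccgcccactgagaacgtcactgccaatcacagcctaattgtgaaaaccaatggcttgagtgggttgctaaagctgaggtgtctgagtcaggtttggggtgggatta
Searched on both strands over 300 bases around each RefSeq start, GAGGAA was in the windows of C1qb, C1qc, Cd68 and Aif1 and not in that of Lyz2, and 28.3% of 27025 promoters hold it. The half-site AGGTCA of ROR receptors was in C1qc and Aif1 (16.0% of promoters), the AP-1 motif TGANTCA in Cd68 (7.93%), and a 10-letter NF-kB motif in none of the 5 (1.17%). Lyz1, which is not among the markers, also held the ROR half-site. A match is a run of letters, not a binding site.

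The other complement genes were a list of 19, of which 15 were tested, and 13 were higher and 0 were lower in DSS-treated KO than in DSS-treated WT, where 21.3% of all genes were higher. C3, the central component, which epithelial cells also make, was at 64.0 and 60.9 CPM in DSS-treated KO and 26.0 and 25.1 in DSS-treated WT (1.29 ± 0.06, adjusted p = 2.5e-09). C1s1, a protease of the C1 complex, averaged 2.30 CPM in DSS-treated KO against 0.476 in DSS-treated WT (2.25 ± 0.31), while C1ra, its partner, averaged 8.58 CPM in DSS-treated KO against 7.16 in DSS-treated WT (0.26 ± 0.15, adjusted p = 0.184). C5ar1 and Cd93 passed the low count filter only through DSS-treated KO. Between untreated KO and untreated WT, 5 of the 15 were higher and 1 was lower, but 1 was higher by DESeq2 and 1 without untreated KO replicate 1 or untreated WT replicate 1. With DSS in WT, 5 of the 15 were higher and 3 lower, with 3 higher by DESeq2.

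Aif1 encodes IBA1, an actin-binding protein of activated macrophages and microglia, and was at the limit of these libraries. Counts were 17 and 12 in DSS-treated KO, 9 and 9 in DSS-treated WT, with 2 and 2 in untreated KO and 2 and 6 in untreated WT. The DSS-treated libraries were above the untreated ones in both genotypes, and the KO ones above the WT ones. The log2 fold change with DSS was 2.67 ± 0.62 (adjusted p = 0.00298) in KO and 1.31 ± 0.58 (adjusted p = 0.0935) in WT, and the interaction was 1.36 ± 0.93 (adjusted p = 0.327). Between DSS-treated KO and DSS-treated WT it was 0.63 ± 0.45 (adjusted p = 0.287). Aif1 passed the low count filter only through DSS-treated KO, so its direction in this comparison was set by it.

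**Figure D2:**
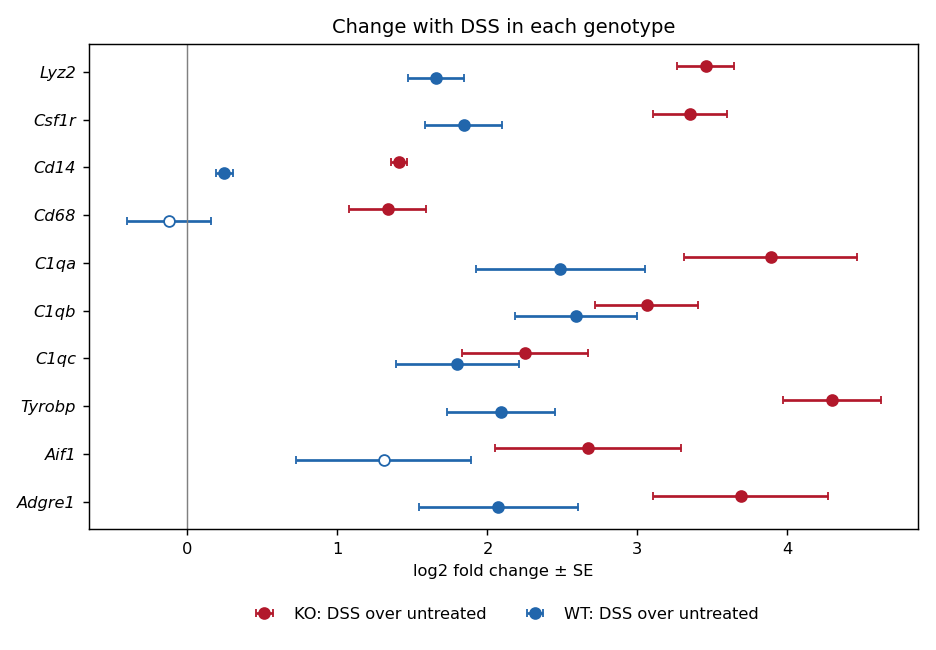
Log2 fold change of DSS over untreated (x axis) with its SE (bars) for each marker, in KO (red) and WT (blue); filled points passed the edgeR test at an adjusted p of 0.05. The red point lies right of the blue one for all 10, from 1.33 for Cd68 to 4.29 for Tyrobp in KO, and the open blue points are Cd68 and Aif1; the KO value of Adgre1 rests on 3 untreated counts.

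Levels per gene length, as the deposited transcripts-per-million (TPM), place the markers in order. In DSS-treated KO the mean was 110.1 TPM for Cd14, 22.9 for Lyz2, 21.7 for Tyrobp, 5.73 for C1qb, 4.35 for Cd68, 3.93 for C1qa, 3.61 for Csf1r, 2.53 for C1qc, 1.92 for Aif1 and 0.59 for Adgre1. Lyz2 and Tyrobp overlapped between libraries, as did Cd68 with C1qa, C1qa with Csf1r, and C1qc with Aif1. In untreated WT, Cd14 at 36.1 TPM was followed by Lyz2 at 3.11 and Cd68 at 1.87, and all others were below 1.5 TPM. Cd14 made up 62.1% of the summed TPM of the 10 in DSS-treated KO, 61.5% in DSS-treated WT, 85.0% in untreated KO and 80.6% in untreated WT. Without it, the other 9 summed to 67.2 ± 3.22 TPM in DSS-treated KO, 29.1 ± 0.0849 in DSS-treated WT, 6.74 ± 1.34 in untreated KO and 8.66 ± 0.0919 in untreated WT (SD, n = 2).

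**Figure D3:**
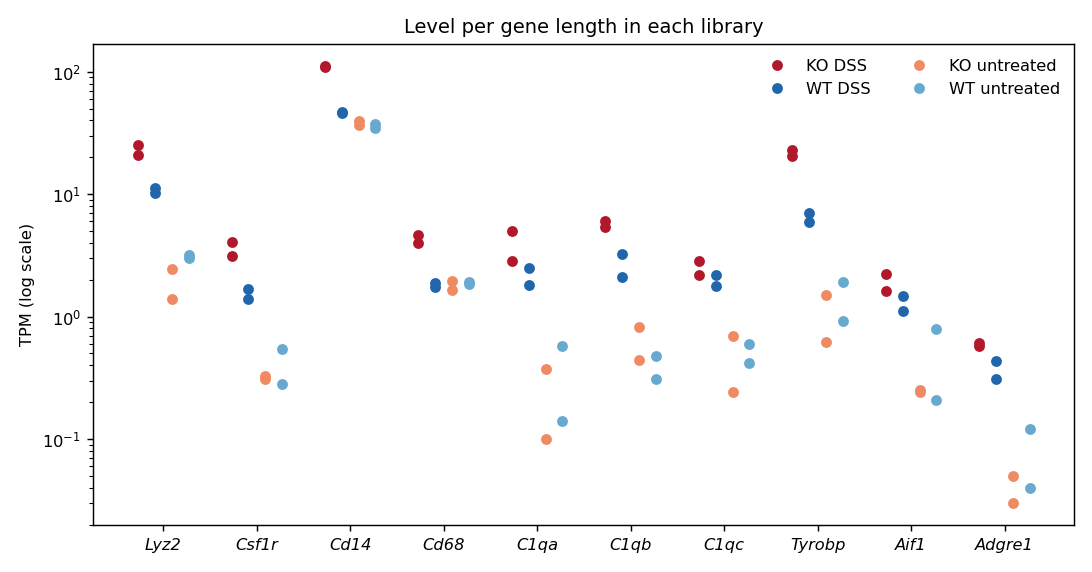
Deposited TPM (y axis, log scale) of each marker in each library, coloured by group. Cd14 lies above 30 TPM in all 8 libraries, Adgre1 lies below 1 TPM in all 8, and Cd68 shows a single level in the 3 groups other than DSS-treated KO.

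Across the 8 libraries the markers varied together, which describes 4 groups that share treatment and genotype rather than independent points. Pearson's r of log2(CPM + 0.5) ran between 0.588 (Cd68 with C1qc) and 0.990 (Csf1r with Adgre1) over all 45 pairs. Leaving out Cd14 and Cd68, the 28 pairs of the other 8 markers lay between 0.844 and 0.990. Cd68 had values of 0.588 to 0.838 with those 8, and 0.936 with Cd14. Only Lyz2 and Cd14 reached a mean of 5 CPM, the level set for naming the genes most like them among 10096. For Cd14 these were Gpx2 (r = 0.998), C3 (0.996) and Tmem50b (0.996), and for Lyz2 H13 (0.992), Sec11c (0.989) and Adgrf1 (0.988). Gpx2, a glutathione peroxidase of the gut epithelium, averaged 852 CPM in DSS-treated KO, 369 in DSS-treated WT, 312 in untreated KO and 295 in untreated WT, levels far above those of the macrophage markers.

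Other macrophage genes gave a mixed account. From a further list of 20, 15 were tested. In DSS-treated KO against DSS-treated WT, 8 were higher and 1 was lower, with a median of 0.81. By DESeq2, 6 were higher and 1 lower. Over all genes tested by edgeR, 21.3% were higher and 17.7% lower. Fcgr1, among the 8, passed the low count filter only through DSS-treated KO, so its direction was set by it. Fcgr3, an Fc receptor, was at 5.64 and 4.92 CPM in DSS-treated KO and 0.901 and 1.00 in DSS-treated WT (2.46 ± 0.26). Spi1, which encodes PU.1, was at 3.22 and 3.72 CPM in DSS-treated KO against 0.841 and 0.883 in DSS-treated WT (2.00 ± 0.27, adjusted p = 3.88e-05), and Itgam, an integrin of myeloid cells, at 12.7 and 12.2 CPM in DSS-treated KO against 5.47 and 4.89 in DSS-treated WT (1.27 ± 0.13). Not every gene of this list was higher. Mertk, a receptor for dying cells, was at 34.9 and 34.3 CPM in DSS-treated KO against 57.4 and 53.5 in DSS-treated WT (-0.68 ± 0.06, adjusted p = 3.98e-07), and Mrc1 at 2.09 ± 0.114 CPM in DSS-treated KO against 1.82 ± 0.236 in DSS-treated WT (SD, n = 2, log2 fold change 0.21 ± 0.25, adjusted p = 0.543). Mertk averaged 47.5 CPM in untreated KO and 52.2 in untreated WT, and its change with DSS in WT was 0.09 ± 0.05 (adjusted p = 0.215). Which cells held Mertk was not tested. Mertk and Ctss, the protease cathepsin S at 203 to 283 CPM, made up most of the list's sum, and Cd163 was at 0 in DSS-treated KO and untreated KO.

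Markers of other white blood cells moved in the same libraries. Of 14 neutrophil genes 11 were tested. In DSS-treated KO against DSS-treated WT all 11 were higher and 0 were lower, where 21.3% of all genes tested were higher. Of these, 5 (Retnlg, Cxcr2, Mmp8, Ngp and Ltf) passed the low count filter only through DSS-treated KO, so their direction was set by it. Their sum over all 14 was 323 to 347 CPM in DSS-treated KO, 54.3 to 57.6 in DSS-treated WT, 86.0 to 86.2 in untreated KO and 97.4 to 99.8 in untreated WT. Ly6g, which was detected in every group, made up most of it outside DSS-treated KO. With DSS in WT, Ly6g was lower (-1.17 ± 0.06, edgeR adjusted p = 1.73e-09) while 8 of the 11 tested were higher, where 18.9% of all genes were. The fall of the sum in WT is therefore not that of the other neutrophil genes. Which cells held Ly6g was not tested. S100a8, a defining neutrophil transcript also found in monocytes, was at 52.9 and 58.3 CPM in DSS-treated KO and 1.68 and 2.00 in DSS-treated WT, with 0 counts in all 4 untreated libraries. Elane was at 0 in DSS-treated KO, Ngp, Camp, Elane and Mpo in DSS-treated WT, 10 of the 14 in untreated KO and 9 in untreated WT. Neutrophils also express Lyz2, Tyrobp and Cd14, and the part of these cells in the values of the macrophage markers was not tested.

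General white cell genes rose with DSS in both genotypes. All 10 were higher with DSS in KO and all 10 in WT, where 21.7% and 18.9% of all genes tested were. Between DSS-treated KO and DSS-treated WT 9 were higher in KO, where 21.3% of all genes were. Their median over the 10 was 1.23, against 1.05 over the macrophage markers. Ptprc, the common leukocyte antigen CD45, was at 12.8 ± 0.317 CPM in DSS-treated KO, 8.57 ± 1.05 in DSS-treated WT, 3.63 ± 0.713 in untreated KO and 3.85 ± 0.927 in untreated WT (SD, n = 2, log2 fold change of DSS-treated KO over DSS-treated WT 0.58 ± 0.14, adjusted p = 0.00472). Of 12 T and NK cell genes 5 were tested, and 0 passed between DSS-treated KO and DSS-treated WT by edgeR, 0 at an unadjusted p under 0.05 and 0 by DESeq2. Of 10 B and plasma cell genes 9 were tested, and 0 were higher and 3 lower (1 or 2 lower with any 1 library left out). Whether the lists differed from each other was not tested.

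**Figure D4:**
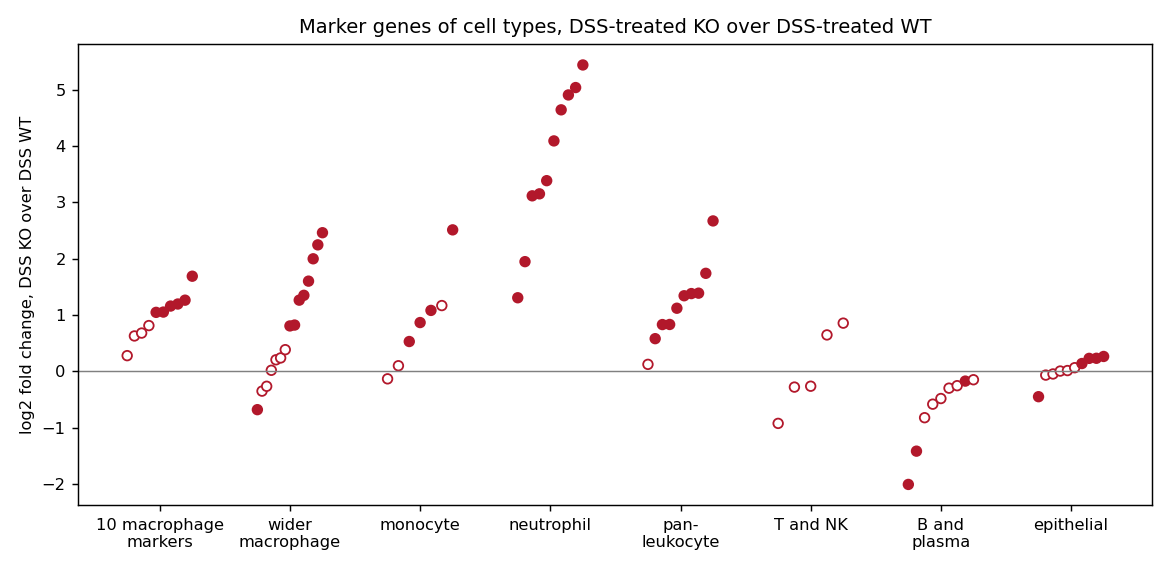
Log2 fold change of DSS-treated KO over DSS-treated WT (y axis) for the tested genes of 8 marker lists (x axis), ordered by value within a list; filled points passed the edgeR test, and genes with 3 or fewer counts in a DSS group are left out. The 10 macrophage markers lie between 0.28 and 1.69, all neutrophil points are above 1, and the epithelial points lie around 0. Of the 10 epithelial genes, 4 (Elf3, Krt19, Cldn7 and Krt8) passed as higher and 1 (Cdx2, -0.45) as lower, where 21.3% and 17.7% of all genes tested did.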

How the data were processed

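RNA-seq tables of 8 libraries were used, 2 per group, grouped by sample title. The authors' RSEM step made the deposited expected counts per gene by sharing out reads that map to several places, and TPM from them by effective gene length, per the file headers. Tools named by the submitters' processing notes are RSEM 1.3.0, STAR 2.5.3a and DESeq2 1.18.1, with the build mm10. Annotation release and strand setting are not given in the sources used here. The deposited FPKM values were not used.

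Expected counts were rounded. edgeR 4.0.16 (R 4.3.3) kept 14991 genes with filterByExpr (minimum count 10 in 2 libraries), scaled libraries with TMM and fitted a single quasi-likelihood model of the 4 groups, which left 4 residual degrees of freedom. Two-sided p-values were adjusted by the Benjamini-Hochberg method within each comparison, with a threshold of 0.05. SE is the size of the log2 fold change over the root of F. CPM are TMM-scaled and TPM are as deposited. Counting intervals cover counting error only. Library totals were 15971642 to 20418466, at which 3 counts equal 0.147 to 0.188 CPM. The procedure was tested on simulated data.

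Markers, gene lists and tests were chosen with earlier results of these data known. The markers and, above 5 CPM, the 3 genes most like each of them by Pearson's r were named by rule, and other list genes were chosen after their values were seen. Values of 2 list genes are not reported here. Alternatives were DESeq2 1.42.0, its size factors, other filters, effective-length offsets, each comparison's groups alone, a replicate block and leaving out each library. Positions are from GENCODE M21, in which 7 of the 10 identifiers had the same version and 10 matched without it, and promoters are from RefSeq.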

Additional observations from a re-analysis of the deposited data

Results flagged for a closer look

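For 5 of the 10 markers the change with DSS differed between genotypes by the test of that difference (edgeR interaction, adjusted over all genes tested). Tyrobp differed by 2.21 ± 0.59 (log2, SE, adjusted p = 0.0164), having changed by 4.29 in KO and 2.09 in WT. Lyz2 differed by 1.80 ± 0.30 (adjusted p = 0.000736), Csf1r by 1.51 ± 0.40 (0.0159), Cd68 by 1.46 ± 0.38 (0.0147) and Cd14 by 1.16 ± 0.08 (2.39e-07). In each, both KO libraries were higher with DSS than without. Summed general white cell genes were 124 to 125 CPM in DSS-treated KO, 56.1 to 57.3 in DSS-treated WT, 27.8 to 28.6 in untreated KO and 29.2 to 30.9 in untreated WT, and their part in these differences was not tested.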

How the results depend on the processing

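Over 728 values of the markers under alternative settings, 704 kept their side of the threshold, 16 lost and 8 gained a call, and 0 reversed a call. Some values that were not called did change sign with 1 library left out. For untreated KO over untreated WT the log2 fold change ran from -0.76 to 0.16 for Csf1r and from -1.80 to 0.60 for C1qa. Genes called between DSS-treated KO and DSS-treated WT numbered 5855, and 3801 by DESeq2 (4093 to 6182 with 1 library left out). Between untreated KO and untreated WT they numbered 2310, with 1246 by DESeq2 and 1290 with effective-length offsets (953 to 3174 with 1 library left out). For DSS over untreated they numbered 5573 in WT, with 3409 by DESeq2 (3659 to 6426), and 6231 in KO (4603 to 6263). The interaction had 3208, with 1684 by DESeq2 and 1794 with effective-length offsets (1891 to 4444). With 1 library left out, markers called were 5 to 7 of 10 between DSS-treated KO and DSS-treated WT, 0 to 1 between the untreated groups, 6 to 8 for DSS in WT, 10 for DSS in KO and 2 to 5 for the interaction. The interaction kept Cd14 and Lyz2 alone without untreated KO replicate 2, and Csf1r, Cd14 and Lyz2 without untreated WT replicate 1. Between the untreated groups 1 marker, Lyz2, was called without the low count filter and with those groups fitted alone. The cause of these shifts was not tested.

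Same-numbered libraries did not deviate together (r of -0.115 to 0.106), so the labels' replicate numbers were not taken as pairs. With a replicate block, 5791 genes were called between DSS-treated KO and DSS-treated WT, 2186 between the untreated groups, 5449 for DSS in WT, 6142 for DSS in KO and 3085 for the interaction, and C1qa was also called between DSS-treated KO and DSS-treated WT (adjusted p = 0.0477). The interaction could not be fitted on a pair of groups. The least counted markers, Adgre1, Aif1 and C1qa with 3, 4 and 5 counts in untreated KO, are limited by depth.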

Other observations

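Genes of monocyte recruitment were mostly higher in DSS-treated KO. Of 12 listed, 8 were tested, and 5 were higher and 1 was lower in DSS-treated KO than in DSS-treated WT. The shares over all genes tested were 21.3% and 17.7%. Ccl4, a chemokine made by activated macrophages, was at 9.32 and 11.6 CPM in DSS-treated KO and 0.541 and 0.530 in DSS-treated WT (log2 fold change 4.27 ± 0.26). Ccl3, its close relative, was at 3.28 and 4.52 CPM in DSS-treated KO against 0.361 and 0.353 in DSS-treated WT (3.42 ± 0.35), and Ccr1, a receptor for both, at 5.70 and 7.10 CPM in DSS-treated KO against 0.781 and 1.47 in DSS-treated WT (2.49 ± 0.25). Ccl4 and Ccl3 passed the low count filter only through DSS-treated KO, so their direction was set by it and their folds are a description. Cx3cl1, the epithelial ligand of CX3CR1, was the lower one, at 88.1 and 92.9 CPM in DSS-treated KO against 108 and 103 in DSS-treated WT (-0.22 ± 0.05, edgeR adjusted p = 0.00248). Ccr2, the receptor that brings monocytes out of the blood, was at 2.88 and 1.72 CPM in DSS-treated KO against 1.92 and 2.36 in DSS-treated WT (0.10 ± 0.31, adjusted p = 0.825). Ccl2, its ligand, had too few counts to be tested.

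Of 8 monocyte genes, 5 were higher and 0 were lower in DSS-treated KO than in DSS-treated WT, where 21.3% of all genes tested were higher. With DESeq2 3 were higher, and the count also fell without DSS-treated WT replicate 2. Of the 8, Chil3, F13a1 and Ms4a6c passed the low count filter only through DSS-treated KO, so the direction of Chil3 and F13a1, among the 5, was set by it. Cd44, another of the 5, was at 0.53 ± 0.08 between the DSS-treated groups. It was also higher in untreated KO than in untreated WT (0.59 ± 0.09, edgeR adjusted p = 0.000325). Chil3, a secreted chitinase-like protein, was at 2.24 and 2.92 CPM in DSS-treated KO against 0.481 and 0.412 in DSS-treated WT, with 0 counts in all untreated libraries. Of 4 tested genes listed for mast cells and eosinophils, 3 (Kit, Mcpt1 and Mcpt2) were lower in DSS-treated KO, where 17.7% of all genes were. Siglecf, an eosinophil marker, was at 0.80 ± 0.55 (adjusted p = 0.270). The mast cell protease Mcpt1 was at 3.57 and 3.49 CPM in DSS-treated KO against 11.8 and 12.3 in DSS-treated WT (-1.77 ± 0.14). It was also lower in untreated KO than in untreated WT (-1.73 ± 0.41, adjusted p = 0.0106), as was Kit (-0.23 ± 0.06). Kit averaged 50.8 CPM in untreated KO and 59.5 in untreated WT, against 0.251 and 0.849 for Mcpt1. With DSS in WT, Kit changed by 0.06 ± 0.05 and Mcpt1 by 3.82 ± 0.18. Which cells held Kit was not tested. Between the DSS-treated groups, 4 of 6 fibroblast genes were higher and 1 lower in KO, with 2 higher by DESeq2. Col1a1 among them passed the low count filter only through DSS-treated KO. Col3a1, a fibrillar collagen, was at 3.34 and 4.01 CPM in DSS-treated KO against 1.32 and 1.59 in DSS-treated WT. Without DSS, Dcn (0.60 ± 0.14, adjusted p = 0.00804) and Col3a1 (0.89 ± 0.26, adjusted p = 0.0346) were higher in untreated KO than in untreated WT, with 0 fibroblast genes called by DESeq2. The 5 Paneth cell defensins listed were at 0 in all groups, and of 5 other Paneth cell genes 3, Lyz1 among them, were higher and 1 lower.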
